A study of Mus musculus with 12 samples.

Results

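At 667 places on chromosomes 1 to 19, ATAC-seq peaks were listed in the FoxA2-positive cells of helix-mutant embryos at both levels of FoxA2 and in neither FoxA2-positive list of wild-type embryos. They were chosen from the deposited lists of peaks. All rows of the 6 lists that overlapped by at least 1 bp were merged into 93083 union regions on the mouse build mm10. A member has a row in the mutant High and Middle lists and no row in the mutant Negative, wild-type High or wild-type Middle list. The wild-type Negative list was left free. The members make up 0.717% of the union regions. Because the rule uses the lists themselves, their pattern over those 5 lists is a description with no test.

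The cells came from mouse embryos at embryonic day 7.5, sorted by the red fluorescence of FoxA2 joined to tagRFP. In the mutant (dHx) embryos both copies of Foxa2 carried FoxA2-tagRFP without 10 residues of an alpha helix, and in the WT embryos both copies carried FoxA2-tagRFP with the helix, so the controls were tagged too. The groups were dHx High, dHx Middle, dHx Negative, WT High, WT Middle and WT Negative. The High gate lay above the signal of heterozygous cells and the Middle gate reached up to it. Homozygous embryos of mixed C57Bl6/J and CD-1 background, not sexed, were pooled for sorting after their extraembryonic part had been removed. Each group had 2 samples and 1 deposited list made from their pooled reads, so there is no value per replicate and no difference between groups was tested.

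FoxA2, a forkhead transcription factor, works in the definitive endoderm, the node and the notochord. It is known as a pioneer factor, a protein that binds its sites on nucleosomes in closed chromatin, and the study compared open chromatin with and without a helix through which it is thought to meet core histones. In ATAC-seq a transposase cuts accessible DNA, and a peak is a stretch with more cuts than the local or genome-wide background.

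Of the members, 71 overlapped a RefSeq promoter window, which runs from 250 bases before to 50 bases after a transcription start. The 4 with the strongest peaks are printed to show the range of sequence among them. Capitals mark every CG, the pair of bases that is dense in CpG islands. All sequences are from RefSeq (GRCm38.p6, the assembly that mm10 names) and run 5′ to 3′ on the strand of the gene.
Epha2, chr4:141300971-141301270, plus strand: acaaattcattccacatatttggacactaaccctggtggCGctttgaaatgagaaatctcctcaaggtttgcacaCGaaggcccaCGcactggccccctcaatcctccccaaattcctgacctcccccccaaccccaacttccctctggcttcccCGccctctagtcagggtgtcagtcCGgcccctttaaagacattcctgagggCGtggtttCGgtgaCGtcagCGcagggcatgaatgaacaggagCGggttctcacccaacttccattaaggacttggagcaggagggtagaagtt
Tm9sf3, chr19:41263955-41264254, minus strand: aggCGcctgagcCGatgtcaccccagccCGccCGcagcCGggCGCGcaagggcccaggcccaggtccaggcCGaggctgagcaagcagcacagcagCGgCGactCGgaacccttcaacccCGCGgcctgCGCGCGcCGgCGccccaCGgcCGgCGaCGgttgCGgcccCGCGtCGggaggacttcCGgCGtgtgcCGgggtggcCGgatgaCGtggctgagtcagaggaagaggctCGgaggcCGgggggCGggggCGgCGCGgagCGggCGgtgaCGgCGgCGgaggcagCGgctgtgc
Pgs1, chr11:117986607-117986906, plus strand: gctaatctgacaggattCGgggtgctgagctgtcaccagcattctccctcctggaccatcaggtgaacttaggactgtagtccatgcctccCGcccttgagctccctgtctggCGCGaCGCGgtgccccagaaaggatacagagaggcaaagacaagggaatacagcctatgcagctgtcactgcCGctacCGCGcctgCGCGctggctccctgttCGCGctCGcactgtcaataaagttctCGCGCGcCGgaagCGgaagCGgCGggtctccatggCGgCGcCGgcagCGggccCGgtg
Igsf6, chr7:121074481-121074780, minus strand: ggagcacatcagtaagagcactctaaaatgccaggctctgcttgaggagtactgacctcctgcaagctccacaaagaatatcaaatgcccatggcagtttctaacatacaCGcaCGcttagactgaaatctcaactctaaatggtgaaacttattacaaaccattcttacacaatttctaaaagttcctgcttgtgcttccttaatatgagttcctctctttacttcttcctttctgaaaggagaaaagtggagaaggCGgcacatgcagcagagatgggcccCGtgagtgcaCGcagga

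Tm9sf3, which encodes a membrane protein of the TM9 family, had 43 CG pairs in a window of 78.0% GC. Pgs1, an enzyme of cardiolipin synthesis, had 26 at 63.3% GC. The window of Epha2, a receptor tyrosine kinase for ephrins, had 10 at 54.7% GC, and that of Igsf6, an immunoglobulin superfamily gene, had 5 at 44.7% GC. The first pair thus looked like CpG islands and the other pair did not, and the Igsf6 region covered only the last 3 bases of its window.

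Because FoxA2 is a forkhead factor, the 4 member windows that hold the forkhead letters TGTTTAC on either strand are printed as well, with those letters in capitals.
Nubpl, chr12:52097496-52097795, plus strand: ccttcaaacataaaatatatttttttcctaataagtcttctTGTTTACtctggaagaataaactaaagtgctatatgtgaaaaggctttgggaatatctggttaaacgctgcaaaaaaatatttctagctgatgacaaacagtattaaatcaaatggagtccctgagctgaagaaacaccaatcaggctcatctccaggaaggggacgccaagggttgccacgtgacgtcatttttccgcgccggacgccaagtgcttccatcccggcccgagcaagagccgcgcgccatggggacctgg
Kctd15, chr7:34652883-34653182, minus strand: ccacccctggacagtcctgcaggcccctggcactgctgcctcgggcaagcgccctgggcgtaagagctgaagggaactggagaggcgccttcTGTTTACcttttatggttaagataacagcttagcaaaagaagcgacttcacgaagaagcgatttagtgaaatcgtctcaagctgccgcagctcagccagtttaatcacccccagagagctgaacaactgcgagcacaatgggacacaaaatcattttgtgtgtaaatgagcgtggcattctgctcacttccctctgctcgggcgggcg
Ccnd3, chr17:47504801-47505100, plus strand: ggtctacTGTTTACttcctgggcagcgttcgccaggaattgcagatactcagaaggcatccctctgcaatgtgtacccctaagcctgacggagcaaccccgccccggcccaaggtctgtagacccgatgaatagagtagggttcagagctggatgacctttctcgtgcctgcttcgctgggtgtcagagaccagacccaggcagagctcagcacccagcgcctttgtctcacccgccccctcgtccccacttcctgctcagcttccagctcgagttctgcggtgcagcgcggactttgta
Helt, chr8:46294622-46294921, minus strand: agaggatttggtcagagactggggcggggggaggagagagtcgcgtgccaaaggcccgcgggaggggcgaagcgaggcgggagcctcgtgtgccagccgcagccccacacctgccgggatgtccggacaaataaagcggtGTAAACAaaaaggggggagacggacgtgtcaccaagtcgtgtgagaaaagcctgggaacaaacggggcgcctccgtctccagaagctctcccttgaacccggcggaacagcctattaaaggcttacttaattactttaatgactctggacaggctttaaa

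Nubpl is a factor for assembly of mitochondrial complex I, Kctd15 a BTB-domain protein, Ccnd3 the cell cycle regulator cyclin D3 and Helt a basic helix-loop-helix repressor. The Helt window carries the letters on the other strand, where they read GTAAACA. At Nubpl and Helt the member region covers only part of the window, and the marked letters lie outside it. At Kctd15 and Ccnd3 the letters lie inside the member region. The peaks at these windows were weak to middling. The Nubpl region scored 6.02 in dHx High and 5.33 in dHx Middle, the Kctd15 region 3.70 and 3.34, the Ccnd3 region 3.70 and 2.43, and the Helt region 2.64 and 2.43. Of the 4, the Ccnd3 region also had a WT Negative row, with a score of 4.16. A match to the letters is a description of the sequence and not evidence of binding.

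The score is the authors' value for a peak, read here as the −log10 of its p-value or its q-value. It grows with sequencing depth and was compared only within a list, as a percentile of that list's peaks. The dHx High list held 37129 peaks and the dHx Middle list 39121. The dHx Negative list held 50424, the WT High list 45689, the WT Middle list 48761 and the WT Negative list 39569. The members therefore lie in the 2 shortest lists and are missing from 3 longer ones, and read totals are not known here. With every list cut to its 37129 strongest peaks, the pattern held at 1047 regions, of which 620 overlapped the members.

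Among the 21797 regions with rows in both dHx High and dHx Middle, 1117 (5.125%) had no row in WT High or WT Middle. Requiring no dHx Negative row left 4798 regions. Of these, 2498 (52.1%) had rows in both WT RFP-positive lists, 1042 (21.7%) in WT High but not WT Middle, 591 (12.3%) in WT Middle but not WT High, and 667 (13.9%) in neither. The populations were profiled in bulk, so a peak from more cells of a type and a peak from more open chromatin per cell cannot be told apart. Most regions that the mutant RFP-positive lists shared and the mutant Negative list lacked were thus listed in at least 1 WT RFP-positive list.

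The reverse pattern, with rows in WT High and WT Middle and none in WT Negative, dHx High or dHx Middle, held 1455 regions (20.65% of 7046). The members were thus the fewer in the lists as deposited. At equal list length the order turned, with 1047 regions of the member pattern and 781 of the reverse pattern. Both patterns were set beside 2005 regions kept in all 4 RFP-positive lists and absent from both Negative lists.

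**Figure D1:**
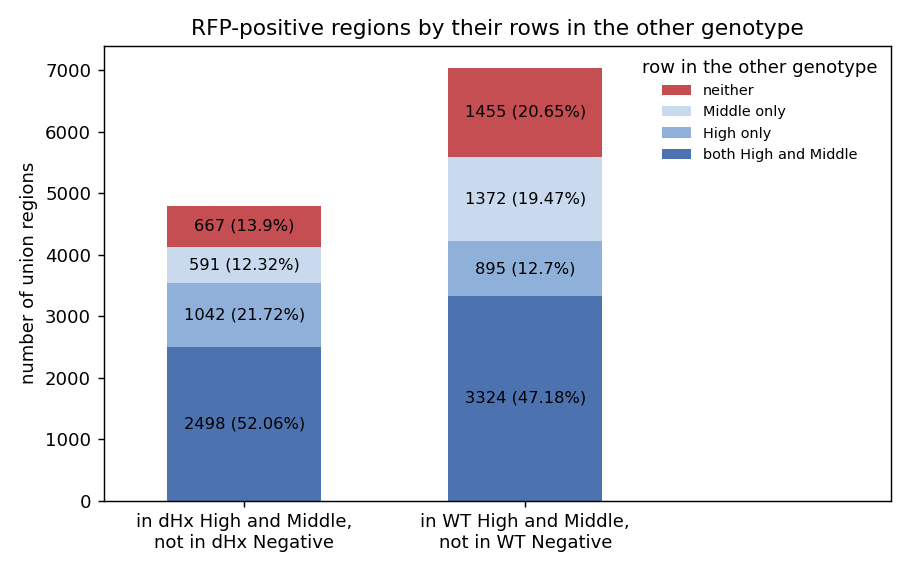
Number of union regions with rows in both RFP-positive lists of a genotype and none in its Negative list, split by the RFP-positive lists of the other genotype that also had a row, for dHx (left) and WT (right). The 667 members are the dHx regions with a row in neither WT list, and the 1455 reverse-pattern regions are the WT counterpart.

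Members were mostly weak peaks. In dHx High their scores ran from 2.64 through a median of 4.83 to 62.8, with a median percentile of 31.5. In dHx Middle they ran from 2.43 through 4.31 to 26.2, with a median percentile of 28.7. The kept regions sat higher, at median percentiles of 56.8 in dHx High and 64.8 in dHx Middle, while the reverse pattern had 30.2 in WT High and 33.9 in WT Middle.

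When the 4798 regions were ordered by the lower of their 2 dHx percentiles, members made up 305 of the weakest 1200 (25.4%) and 28 of the strongest 1200 (2.33%). The 2 classes between, of 1199 regions each, held 213 (17.8%) and 121 (10.1%). The share of members thus fell with every step in strength. The lowest score in a list was 2.64 in dHx High and 2.43 in dHx Middle, against 2.19 in WT High and 2.35 in WT Middle.

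The members differed in which dHx list held the stronger peak. Of them, 377 had the higher percentile in dHx High and 290 in dHx Middle, and Spearman's rank correlation over the 667 regions was 0.15, given as a description of regions that share 2 libraries. Above the 50th percentile in both lists stood 33 members, and below the 25th in both stood 140. Member regions were 219 to 1802 bp wide with a median of 473 bp, against medians of 522 bp for the reverse pattern, 657 bp for kept regions and 451 bp for all union regions.

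**Figure D2:**
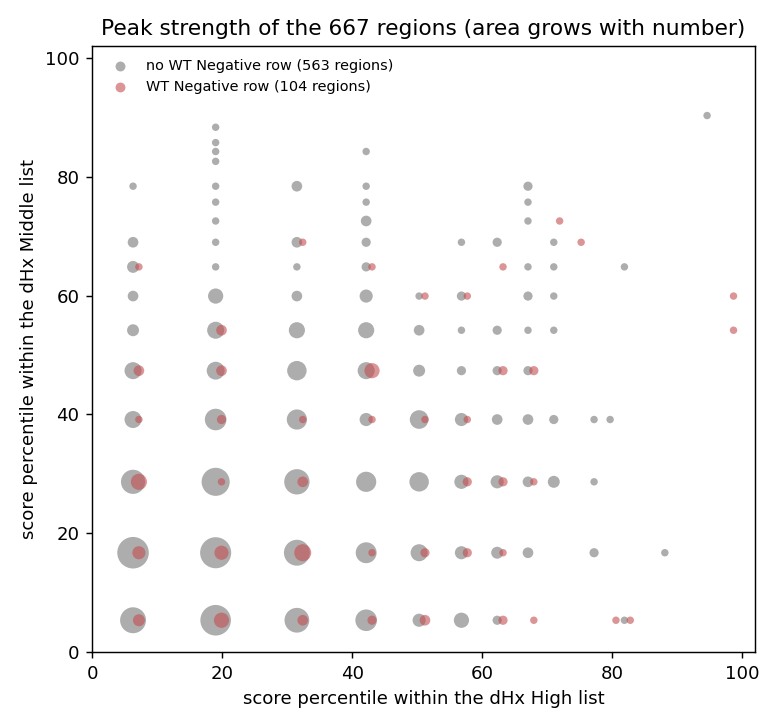
Score percentile of the 667 members within the dHx High list (horizontal axis) and the dHx Middle list (vertical axis), with area growing with the number of regions at a point, grey without and red with a WT Negative row (shifted slightly to the right). Most regions lie in the lower left, with medians of 31.5 (dHx High) and 28.7 (dHx Middle), and the lone point at 94.6 and 90.3 is the Ano2 region.

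The WT Negative list was the one the rule did not use. It had a row in 104 of the 667 members (15.6%, 95% Clopper-Pearson interval 12.9 to 18.6), against 39.5% of all union regions. This and all later intervals cover counting error only. For the reverse pattern, the matching list is dHx Negative, which had a row in 548 of 1455 regions (37.7%), against 49.8% of all union regions. Both shares thus lay below that of the union regions as a whole, which include regions open in all lists. A WT Negative row was found in 72.1% of regions in dHx High and dHx Middle and in 59.6% of regions in 2 lists or more. The rule leaves out regions with a row in dHx Negative, WT High or WT Middle, so part of the low member share follows from the rule.

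The 104 members with a WT Negative row carry the name FoxA2-positive against the data, since wild-type cells without RFP had a peak there. Their WT Negative scores ran from 2.46 through a median of 4.16 to 29.8. The highest was at Calm2, one of the calmodulin genes, where a region 1290 bp wide (chr17:87437220-87438509) scored 62.8 in dHx High and 7.52 in dHx Middle, besides 29.8 in WT Negative. In 3 equal classes of member strength, the share with such a row was 18.9% in the weakest, 14.0% in the middle and 13.9% in the strongest class.

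At the other members, no WT list and no dHx Negative list had a row. Absence from a list does not mean closed chromatin. The nearest WT High or WT Middle row lay at a median of 7608 bp, 295 members were more than 10 kb from one, and 49 lay within 500 bp. Just inside the rule were regions at Adamtsl1 (chr4:85914799-85915464), Epha2 (chr4:141301083-141302005) and Acvr1 (chr2:58551756-58552390), which missed a WT RFP-positive row by 3, 6 and 36 bp. Just outside were regions at Trabd2b, Tbc1d30 and Ugcg, which overlapped such a row by 3, 10 and 15 bp.

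Peak numbers in the deposited lists have gaps, and the labels do not say what lies behind them. A number was skipped between the rows around a member in WT High at 208 members (31.2%), where 23.1% of the bases between rows lie in such gaps. In WT Middle it was 134 members (20.1%, against 16.05% of bases) and in dHx Negative 143 (21.4%, against 18.4%). At 287 members no number was skipped in any of the 3 lists. Whether a removed peak lay at the other members cannot be read from the lists.

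The strongest member by its lower percentile lay inside Ano2, a calcium-activated chloride channel gene, 187 kb past its start (chr6:125876913-125877277). It scored 40.4 in dHx High and 26.2 in dHx Middle, at percentiles 94.6 and 90.3. The next member by that measure stood at 71.0. The nearest row lay 91.6 kb away in WT High and 47.1 kb away in WT Middle, and no peak number was skipped around it.

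After Ano2 came a region 1802 bp wide in Atrnl1, an attractin-like gene (chr19:57633942-57635743). It was the widest member and scored 12.7 in dHx High and 12.3 in dHx Middle, besides 10.3 in WT Negative. The Epha2 promoter region scored 14.1 in dHx High and 11.1 in dHx Middle, besides 5.09 in WT Negative, and its edge lay 6 bp from a WT High row. Both of these regions thus also had a peak in wild-type RFP-negative cells, and around both a number was skipped in WT Middle.

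Members at a distance from genes were also among the strongest. A region 29.4 kb from Grhl2, which encodes a transcription factor of epithelia (chr15:37203041-37203473), scored 11.25 in dHx High and 14.9 in dHx Middle. A region 221 kb from Bmp2, the nearest protein-coding gene (chr2:133783610-133783906), scored 11.25 and 13.6, and one 91.5 kb from Nat1, an N-acetyltransferase gene (chr8:67399142-67399508), scored 12.7 and 11.1. None of these 3 had a WT Negative row or a skipped number around it.

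Others of the 15 strongest lay at Arhgap32, Col12a1, Tm9sf3, Ehmt2, Zfp36l1, Plce1, Svs1 and Slc27a1. Col12a1 encodes a collagen, Ehmt2 the histone H3 lysine 9 methyltransferase G9a and Zfp36l1 an RNA-binding protein of mRNA decay. Slc27a1, a fatty acid transporter gene, had the same top score as Calm2 in dHx High (62.8), against 8.67 in dHx Middle, and it scored 7.08 in WT Negative. Plce1, a phospholipase C gene, had the weakest WT Negative row among the 15, at 2.46.

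Some members were strong in 1 dHx list alone. Galnt11, a glycosyltransferase gene, had a region at 24.9 in dHx High and 3.34 in dHx Middle. Frmd4b, a scaffold protein gene, and Morc2a, a MORC-family ATPase gene, had regions at 23.3 and 20.4 in dHx Middle, both with 3.70 in dHx High. These 3 were chosen after their values were seen, as the members other than those already named that scored over 20 in a dHx list. Among the 10 widest members were regions at Marchf9 (1485 bp), Nab1 (1388 bp) and Lrp5 (1213 bp), which overlapped a promoter window. Another of the 10, 1441 bp wide, lay 813.5 kb from Cdh11, its nearest protein-coding gene.

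Members lay in and near protein-coding genes more than the reverse-pattern and kept regions did, by share and with no test. Inside protein-coding gene bodies lay 58.0% of members, against 47.2% of reverse-pattern, 53.4% of kept and 54.3% of all union regions. Within 1 kb of a gene end lay 17.2% of members, against 10.4% of reverse-pattern, 6.38% of kept and 18.2% of all regions. Farther than 100 kb from a gene lay 8.40% of members, against 11.6% of reverse-pattern, 13.4% of kept and 11.1% of all regions. In each of these measures the members stood nearer to genes than either compared set.

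Off chromosome 18, a promoter window was overlapped by 71 of 643 members (11.04%, interval 8.73 to 13.7), against 13.1% of all union regions. It was 4.98% of the reverse pattern and 5.705% of the kept regions. Members with a WT Negative row overlapped one in 19 of 103 cases (18.45%) and those without in 52 of 540 (9.63%). Regions in all 6 lists did so in 52.4% and regions in exactly 2 lists in 5.83%. The member share thus lay above that of the 2 compared sets and near that of all union regions, and it was higher where the WT Negative list also had a row.

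The 71 members touched 85 promoter windows of 77 genes, 68 of them protein-coding. A CpG ratio is the number of CG pairs over the number expected from the C and G content of the window. Its median was 0.87 in member windows, against 0.35 in reverse-pattern windows, 0.50 in kept windows, 0.79 in windows of regions in all 6 lists and 0.39 in all windows. A ratio above 0.6 was found in 83.5% of member windows, 36.7% of reverse-pattern windows and 36.4% of all windows. Median GC content was 67.3% in member windows, against 53.0% in reverse-pattern windows and 63.0% in windows of regions in all 6 lists. By this ratio most member promoters were of the CpG-island kind, as most of those open in all lists were, and most of those of the reverse pattern were not.

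**Figure D3:**
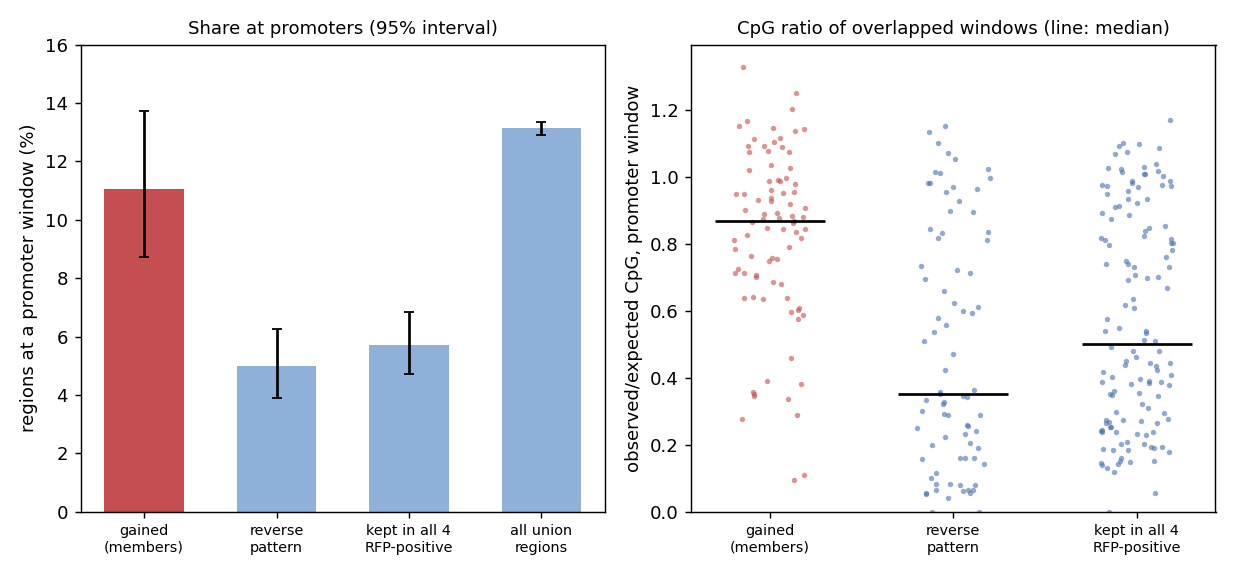
Left, share of regions off chromosome 18 that overlap a promoter window (percent, bars from 0, error bars 95% Clopper-Pearson intervals). Right, CpG ratio of each overlapped window (1 point a window, line at the median), with medians of 0.87 for members, 0.35 for the reverse pattern and 0.50 for kept regions.

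Among these promoters were Wnt9a, a Wnt ligand, with scores of 8.55 in dHx High and 5.33 in dHx Middle, besides 2.46 in WT Negative. The promoter region of Haspin, a histone H3 kinase gene that lies within Itgae, scored 11.25 in dHx High and 6.40 in dHx Middle, besides 4.16 in WT Negative. Commd1, a regulator of copper and NF-kB, scored 3.70 in dHx High and 17.6 in dHx Middle. Cldn1, a tight junction protein, scored 2.64 and 3.34, and Lamb2, a laminin chain, 3.70 and 2.43. The Cldn1 and Lamb2 peaks stood below the 20th percentile of both dHx lists. Wnt9a, Haspin, Commd1, Cldn1 and Lamb2 were chosen after their values were seen.

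The forkhead letters TGTTTAC occurred in 4 of 85 member windows (4.71%, interval 1.30 to 11.6), against 3.71% of all promoter windows, 5.06% of reverse-pattern windows and 7.58% of kept windows. The variant TATTTAC occurred in none of the 85, where a count of 0 allows up to 4.25% by the same interval, against 6.33% of reverse-pattern windows and 3.08% of all windows. The forkhead share in members thus cannot be told from that of all promoters at this number. Windows were searched whole, so a match can lie outside the member region, as at Nubpl and Helt. The windows cover promoters alone, and the sequence of the 572 members off chromosome 18 without a window was not used here.

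Other motifs differed more between the sets. CCAAT, the box bound by NFY, occurred in 11 of 85 member windows (12.9%, interval 6.64 to 22.0), against 24 of 132 kept windows (18.2%, interval 12.01 to 25.8), 26 of 79 reverse-pattern windows (32.9%), 43.2% of windows of regions in all 6 lists and 37.3% of all windows. AGATAA, the motif of GATA factors, occurred in 2 of 85 member windows (2.35%, interval 0.29 to 8.24). It occurred in 11.4% of kept windows, 12 of 79 in the reverse pattern (15.2%) and 11.15% of all windows. In windows of regions in all 6 lists it was 4.71%, inside the member interval. AGGGGGC, part of the CTCF motif, occurred in 18 of 85 (21.2%), against 15.2% of kept windows, 5 of 79 in the reverse pattern (6.33%), 18.02% in regions in all 6 lists and 10.7% of all windows. Some windows overlap each other, and the intervals count each as separate. With 1 window a region, CCAAT occurred in 9 of 71 member windows (12.7%) and 24 of 70 in the reverse pattern (34.3%). For AGGGGGC it was 14 of 71 (19.7%) and 4 of 70 (5.71%). Member windows thus had fewer CCAAT and GATA matches and more CTCF core matches than reverse-pattern windows, and the intervals of the member and kept windows overlapped for CCAAT. Median GC content was 67.3% in member windows, 55.2% in kept windows, 53.0% in the reverse pattern and 63.0% in regions in all 6 lists. The part of GC content in these motif shares was not tested.

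**Figure D4:**
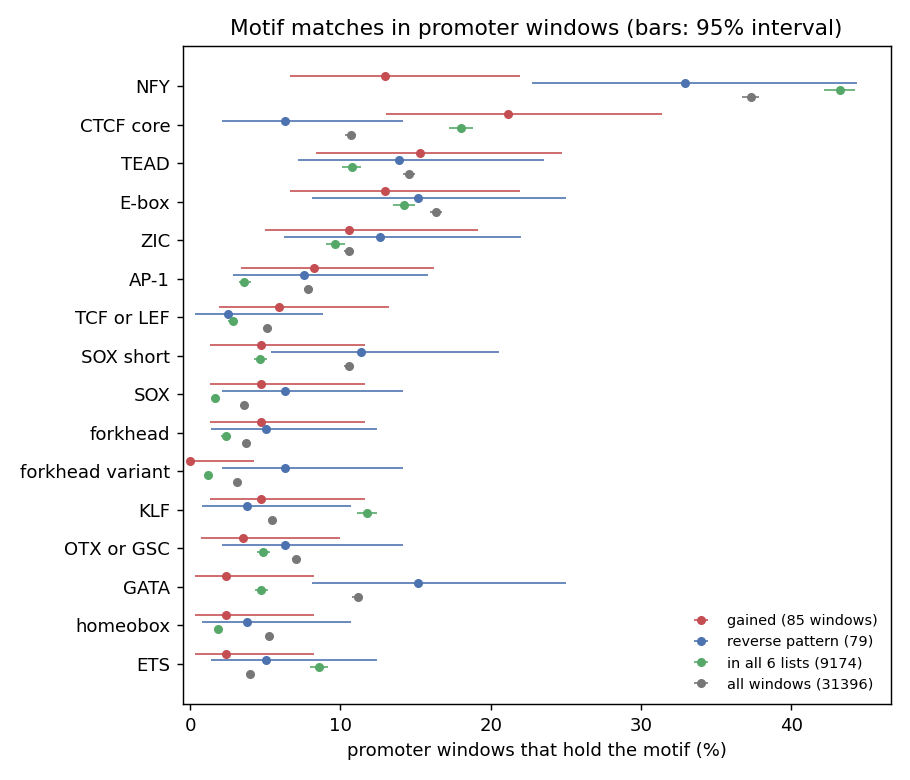
Share of promoter windows (percent) that hold each motif on either strand, for members, the reverse pattern, regions in all 6 lists and all windows, with 95% Clopper-Pearson intervals. CCAAT (NFY) is found in 12.9% of member windows against 37.3% of all windows, and the forkhead letters in 4.71% against 3.71%.

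By the nearest protein-coding gene within 100 kb, 611 members fell to 581 genes (2.81% of 20665 genes). Of the 282 genes in 11 lists of tissue and pathway genes, 274 were matched and 18 had a member. In the node, notochord and cilia list it was 5 of 30 genes (16.7%) and in the definitive endoderm list 4 of 30 (13.3%). A reverse-pattern region was assigned to 4 of the node genes and 2 of the endoderm genes, and to 1116 of the 20665 genes. These genes can have many regions, and of the regions near them 5 of 277 (1.81%) and 4 of 347 (1.15%) were members, against 0.739% of the regions near all genes. No member lay nearest to any of 23 visceral endoderm, 23 blood and endothelium or 23 ubiquitously active genes, which had 149, 142 and 90 regions. At so few regions, 0 members cannot be told from the share near all genes. The higher shares near the node and endoderm genes rest on 5 and 4 members, with the Foxa2 member counted in both, and were not tested either.

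In the node list, a member lay 66.0 kb past the start of Foxa2 itself (chr2:147980653-147981271), with scores of 4.83 in dHx High and 9.86 in dHx Middle. The nearest WT rows were 3.45 kb away in WT Middle and 8.48 kb away in WT High. The nearest listed transcription start was that of 9030622O22Rik, with the region 0.632 kb before it. Of the 33 union regions assigned to Foxa2, 1 was a member, 1 was of the reverse pattern and 1 was kept. By list, 16 of them had a row in dHx High and 20 in dHx Middle, against 16 in WT High and 19 in WT Middle. Shh, which encodes the hedgehog ligand made by the notochord, had a member at chr5:28500735-28501466 (3.70 in dHx High and 2.43 in dHx Middle). Ptch1, the hedgehog receptor, had one 17.2 kb past the start of its gene body (3.70 and 3.34). That region lay 9.49 kb past the nearest annotated Ptch1 transcription start. Bicc1, an RNA-binding protein of node cells, had one (4.83 and 5.33), as had Slit2, a secreted guidance factor, in its gene body (4.83 and 2.43). Apart from that of Foxa2 in dHx Middle, these peaks were below the 40th percentile of their lists. None had a WT Negative row. Peak numbers were skipped around the Shh region in WT High, WT Middle and dHx Negative, and around the Bicc1 region in WT High, so their absence from those lists is less certain.

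In the definitive endoderm list, Pyy, which encodes a gut peptide, had a member 0.672 kb past its start (chr11:102106967-102107354), with scores of 7.26 in dHx High and 4.31 in dHx Middle. It was the only union region assigned to that gene. Cxcr4, a chemokine receptor of the endoderm, had one 95.2 kb before its start (4.83 and 4.31), and Krt18, a keratin of simple epithelia, one 5.64 kb past its start (3.70 and 5.33). A WT High peak lay 1.20 kb from the Krt18 region, and numbers were skipped there in WT High and dHx Negative. Numbers were also skipped around the Cxcr4 region in WT High and WT Middle and around the Pyy region in WT High. Foxa2, whose member is described with the node list, is the remaining gene of this list with a member.

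Among epiblast and neuroectoderm genes (3 of 28), Sox2, a pluripotency and neural factor, had a member 97.8 kb past its start (chr3:34747511-34748031), at 7.26 in dHx High and 5.33 in dHx Middle. The regions assigned to Sox2 had a row in dHx High (4 regions), dHx Middle (3) and dHx Negative (2), against none in WT High or WT Middle and 2 in WT Negative. The dHx High and dHx Middle counts include the member by the rule. The lack of WT High and WT Middle rows rests on the 100 kb limit, since the member lay 95.05 kb from the gene. WT High and WT Middle rows lay 5.62 and 5.55 kb from the member. Numbers were skipped around it in WT High and dHx Negative. Sox4 had a member 61.3 kb before its start (7.26 and 7.52), and Hesx1, a forebrain homeobox factor, had one (4.83 and 7.52). The Hesx1 region lay 6.17 kb past the start of the gene body and 0.23 kb past the nearest annotated Hesx1 transcription start. Sox2 is also in the list of later gut organs, where Grhl2 was the other gene with a member (2 of 29). The Sox2 and Sox4 peaks were both above the 50th percentile in dHx High.

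Signalling genes with a member numbered 5 of 55. Bmp2, a BMP ligand, had 2, both at 2.64 in dHx High and 3.34 in dHx Middle, besides the far stronger region 221 kb away. Acvr1, a type I receptor for BMPs, had one (3.70 and 12.3) whose edge lay 36 bp from a WT Middle row. Smad1, which carries the BMP signal to the nucleus, had one at 2.64 in dHx High and 9.86 in dHx Middle, besides 2.46 in WT Negative. On the Wnt side, Lrp5, a co-receptor, had one (4.83 and 3.34), and Wnt7b, a ligand, had one at 15.6 in dHx High and 3.34 in dHx Middle. Bmp2 is also in the lateral mesoderm list (1 of 30 genes with a member) and Wnt7b in the extraembryonic list (1 of 20). In the streak list (1 of 27), Sp5, a zinc finger factor downstream of Wnt, had one 1.81 kb past its start (3.70 and 3.34). A number was skipped in WT High around the Lrp5 and Wnt7b regions and 1 of the Bmp2 regions.

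Few genes had more than 1 member. It was 28 genes, with 3 at Sertad2 and Sipa1l1 and 2 at each of 26 others. Sertad2, which encodes a transcriptional co-regulator, had 10 union regions with a row in the dHx High list and 9 each in dHx Middle and dHx Negative, against 8 in WT High, 11 in WT Middle and 6 in WT Negative. Its locus was thus open in all groups, and the members are single peaks among many. Plagl2, a zinc finger factor, had 3 regions in all, of which 2 were members. Tmem179 had 4 such regions in each dHx list, against 1 in WT High, 1 in WT Middle and 0 in WT Negative. Slc40a1, the iron exporter, had 3 such regions in the dHx High list, 4 in the dHx Middle list and 1 in dHx Negative, against 1 in WT High, 4 in WT Middle and 1 in WT Negative. Fat4, a protocadherin, had 6, 2 and 3 in those dHx lists, against 2, 2 and 1 in the WT lists. Grhl2 had 13 such regions in dHx High and 11 in dHx Middle, against 11 in WT High and 11 in WT Middle. All these counts include the members. The rule puts each member in dHx High and dHx Middle and keeps it out of WT High and WT Middle. Part of any dHx excess at these genes thus follows from how the genes were picked.

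**Figure D5:**
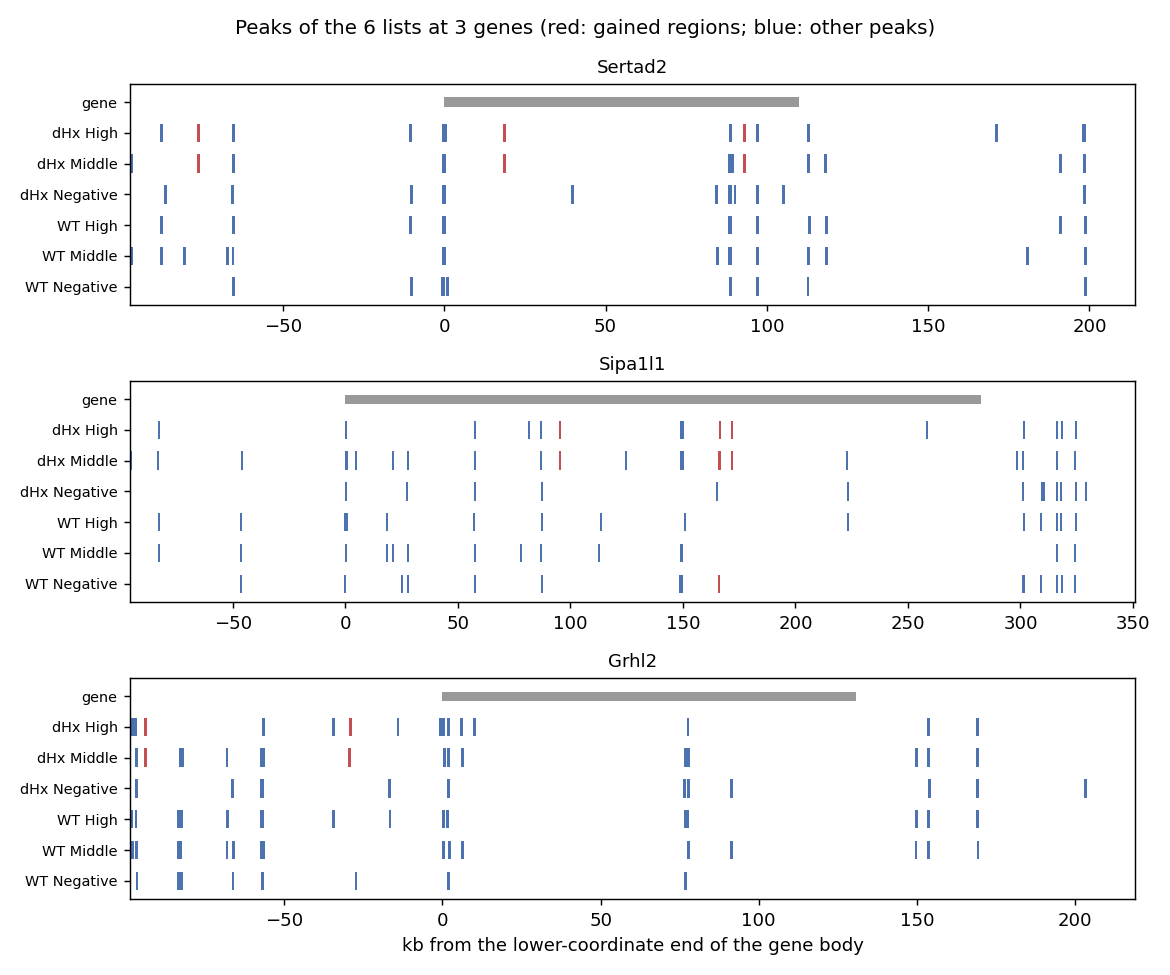
Peaks of the 6 lists along the loci of Sertad2, Sipa1l1 and Grhl2, as distance in kb from the lower-coordinate end of the gene body, dHx lists above WT lists, with peaks in member regions in red and others in blue. At Sertad2 the 3 members lie among peaks found in all groups.

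Within 100 kb of another member lay 82 members, in 39 groups, of which 4 had 3 members and 35 had 2. Chromosome 19 had the highest share of its union regions as members (1.10%) and chromosome 4 the lowest (0.444%). Chromosome 2 held the most members, 63, but also the most union regions, 8026. Its share of 0.785% was near the 0.717% of all union regions. On it, 3 of the groups lie among the zinc finger genes around Zfp968, Gm4724 and Zfp967. Genes there have near-identical copies, so the placing of reads and with it these peaks is uncertain.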

How the data were processed

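ATAC-seq was measured in 12 samples, 2 in each of 6 groups. The submitters' processing notes name STAR 2.5.2a and MACS2, with no role or setting. The authors deposited 1 peak list per group, on mm10, with names that point to pooled and filtered reads. The score of each peak in the deposited lists was read as the −log10 of its p-value or its q-value, from the values, since the column has no name. Read totals per sample were not used here.

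Rows on chromosomes 1 to 19 were merged into union regions where they overlapped by at least 1 bp. Percentiles were taken within a list, with ties at their mean rank. Genes and promoter windows came from RefSeq tables of GRCm38.p6, and each region went to its nearest protein-coding gene, at most 100 kb away. No promoter windows were used for chromosome 18. With 1 list a group no test was run and no p-value computed. Shares carry 95% Clopper-Pearson intervals, which cover counting error only. The counting was checked on simulated lists. Python 3.11.15, pandas 2.3.3, numpy 2.4.6, scipy 1.17.1 and matplotlib 3.10.9 were used.

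The motifs searched, on both strands, were TGTTTAC and TATTTAC (forkhead), ACAATGG and AACAAT (SOX, which can share bases), AGATAA for the GATA family, ATGCAAAT (POU), CTTTGAA (TCF or LEF), TGANTCA (AP-1), GGAATG (TEAD), CCGGAAGT (ETS), AGGTGTGA (T-box), TAATTA (homeobox), GGATTA (OTX or GSC), GTTAATNAT (HNF1), CAAAGTCCA (HNF4), AGGGGGC (CTCF core), CAGCAGG (ZIC), CAGCTG (E-box), CCAAT (NFY), AACCGGTT (GRHL) and GGGCGTGG (KLF).

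The members, gene lists and rules were chosen with earlier results of these data known. The text names Foxa2, the 15 strongest members and the listed genes with a member. It also names some of the 10 widest members and of the genes with the most members. Which of these got values in the text was chosen after their values were seen, and other genes are marked as such where they are named. 1 result that the rule names is not reported here.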

Additional observations from a re-analysis of the deposited data

How the results depend on the processing

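The number of members rested on list length and peak strength. It was 667 as reported, 121 with a score of at least 5 in dHx High and dHx Middle, 1047 with lists of equal length (620 of the reported regions overlapped) and 287 without skipped peak numbers. With a score of at least 5 in every list it was 490, and these overlapped 121 of the reported regions. The count was thus lower, and most of the reported regions were not in that set. The remaining 5 settings gave 626 to 765. The reverse pattern held 1455 regions, 670 with a score of at least 5 and 781 with lists of equal length. Within 20 kb in place of 100 kb, 11 listed genes had a member and 15 genes had 2 or more. Within 5 kb of a gene end lay 33.6% of members. Of 26 alternative values, 18 kept within a wide range, which took in 490 members for 667 and 27 listed genes for 18. The WT Negative share (13.9% to 18.2%) and the promoter share (9.46% to 10.3%) were among the values that kept within it. The cause of the other differences was not tested, apart from those that fewer or farther regions give by construction. The skipped-number setting and the alternatives for the reverse pattern and the CpG and CCAAT values were chosen after seeing the data.

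No paired analysis was possible because each group is given as 1 pooled list without values per replicate, and no replicate was left out for the same reason. Motifs around peak summits were not run, since no genome was used. Scores and list lengths grow with depth, and read totals are not known here.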
